A study of Mus musculus with 6 samples.

Results

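Triglyceride assembly in the liver was followed through 10 genes, Gpam, Agpat2, Agpat3, Lpin1, Lpin2, Mogat1, Dgat1, Dgat2, Mttp and Tm6sf2, which were taken by name from the 56674 rows of the count table. Each name stood on 1 row, and all 10 passed the filter on low counts that left 18043 genes. RNA was sequenced from the livers of male C57BL/6 mice reared for 71 weeks, 3 libraries from mice on normal chow and 3 from mice on chow that contained polyethylene microplastic (PE-MP). No genotype other than the strain, and no agent other than PE-MP, is named in the labels. They state neither the dose or size of the plastic nor whether each library came from a separate mouse, so the p-values cover only library-to-library spread, possibly technical. The comparison asks how hepatic gene expression differs after long exposure to PE-MP.

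Triglyceride is built in the endoplasmic reticulum and at the mitochondrial surface by adding fatty acids in turn to glycerol 3-phosphate. A GPAT enzyme adds the first acyl chain, an AGPAT enzyme adds the next to give phosphatidic acid, a lipin removes the phosphate to give diacylglycerol, and a DGAT enzyme adds the last chain. Intestine and fatty liver also make diacylglycerol from monoacylglycerol through MGAT enzymes. Hepatocytes store the product in lipid droplets or load it onto apolipoprotein B with the help of Mttp and Tm6sf2 for export as very low density lipoprotein (VLDL).

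The promoter windows are shown for Gpam and Mogat1, the 2 members with the smallest p-values, neither of which passed the adjusted threshold in edgeR. RefSeq sequences on build GRCm38.p6 were matched by symbol for 7 of the 10 members; Dgat1, Dgat2 and Tm6sf2 were not matched. Each window holds the 250 bases before a transcription start, written 5′ to 3′ on the strand of the gene. Capitals mark matches on either strand to 7 searched motifs: CCAAT (the CCAAT box), CACGTG (an E-box), GGGCGG (a GC box), TTATGTAA (a D-box), AGGTCA (a nuclear receptor half-site), direct repeat 1 (a pair of AGGTCA half-sites 1 base apart, so that each match also counts as half-sites) and the sterol response element, searched in its consensus form. Gpam has 2 annotated starts, at the ends of chr19:55127239-55127488 (window 1) and chr19:55099478-55099727 (window 2) on the minus strand, and the window of Mogat1 is chr1:78510810-78511059 on the plus strand.
Gpam window 1: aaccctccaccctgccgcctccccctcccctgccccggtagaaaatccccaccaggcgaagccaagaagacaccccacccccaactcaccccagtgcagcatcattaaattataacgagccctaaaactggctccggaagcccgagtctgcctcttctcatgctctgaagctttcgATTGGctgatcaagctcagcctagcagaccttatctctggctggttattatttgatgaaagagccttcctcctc
Gpam window 2: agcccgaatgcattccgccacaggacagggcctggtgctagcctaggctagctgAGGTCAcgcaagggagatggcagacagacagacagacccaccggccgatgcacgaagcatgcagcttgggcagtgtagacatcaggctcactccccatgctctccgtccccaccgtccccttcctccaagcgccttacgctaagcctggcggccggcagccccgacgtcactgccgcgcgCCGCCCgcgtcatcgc
Mogat1: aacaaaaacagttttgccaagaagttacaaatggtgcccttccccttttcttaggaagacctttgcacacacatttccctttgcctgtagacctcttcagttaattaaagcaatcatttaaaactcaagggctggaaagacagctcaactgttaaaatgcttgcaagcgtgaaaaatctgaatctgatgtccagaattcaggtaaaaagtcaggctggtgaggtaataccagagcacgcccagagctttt
Window 1 of Gpam held 1 inverted CCAAT box, whose last base lies 70 bases before the start, and 33.9% of all 32851 such windows held at least 1. Window 2 held 1 inverted GC box and 1 half-site, motifs that 32.7% and 14.0% of all windows held. The Mogat1 window held none of the 7. An E-box was present in 6.02% of windows, a D-box in 0.819%, a sterol response element in 0.0731% and direct repeat 1 in 0.0335%. A short stretch after the start of Gpam window 1 matched a GENCODE M21 transcript of the gene. The same check found no match for Gpam window 2 or for Mogat1. It cannot decide whether the transcript set backs these starts, because a splice junction in the stretch or a slightly later start also gives no match. The counts do not say which start of Gpam was used in these livers.

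Total counts ran from 68357478 to 112566641 per library. The liver label was checked against 11 hepatocyte markers, all above 0 in every library, whose summed level was 72754 to 92923 CPM (counts scaled to a common library size) under normal chow and 76872 to 84422 under PE-MP chow. Mitochondrial mRNAs took 14.2% to 15.1% of counts in the normal chow libraries and 8.63% to 9.19% in those on PE-MP chow (exact permutation p = 0.1, the smallest that 3 against 3 allows). Summed marker levels of some other cells were also apart between the chows, though no single marker of these lists passed an adjusted p under 0.05 in edgeR. For 10 Kupffer cell markers they were 118 to 159 CPM under normal chow and 163 to 271 CPM under PE-MP chow. For 10 endothelial markers they were 124 to 157 and 163 to 226 CPM, and for 11 lymphocyte markers 22.7 to 62.1 and 7.87 to 13.0 CPM. Jchain alone gave 13.1 to 40.5 CPM of the lymphocyte sum under normal chow and 0.539 to 4.09 CPM under PE-MP chow. The part of these cells in the members' levels was not tested. The 18S row Rn18s-rs5 took 11.2% of normal chow library 2 and between 0.334% and 5.98% of the others. The scaling factors computed across genes (TMM, the trimmed mean of M-values) differed between the chows, 0.879 to 0.923 under normal chow and 1.07 to 1.17 under PE-MP chow. This bears on every member, because a gene whose share of the library stayed level was read as lower under PE-MP chow after scaling.

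All 10 members had a lower fitted level under PE-MP chow with TMM factors, and 0 passed the edgeR threshold (adjusted p under 0.05), which 0.00554% of all tested genes passed. Limma-voom also called 0 members, and called 0.0665% of all tested genes lower. At an unadjusted p under 0.05, 2 members were lower, Gpam and Mogat1, and 0 higher, while 8.82% of all tested genes were lower and 9.10% higher by that rule. The chows did not overlap for 1 member, Gpam, against 11.8% of all tested genes that were lower without overlap. The members' median log2 fold change was -0.39, with a median of 0.018 over all tested genes, of which 48.3% were negative. With library totals in place of TMM factors, a setting chosen after seeing the data, 6 of 10 members were negative with a median of -0.079; that setting moved the median of all tested genes to 0.32, and all 10 members lay below it. DESeq2 called 2 members lower, Gpam and Mogat1, and 2.55% of its tested genes lower.

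**Figure D1:**
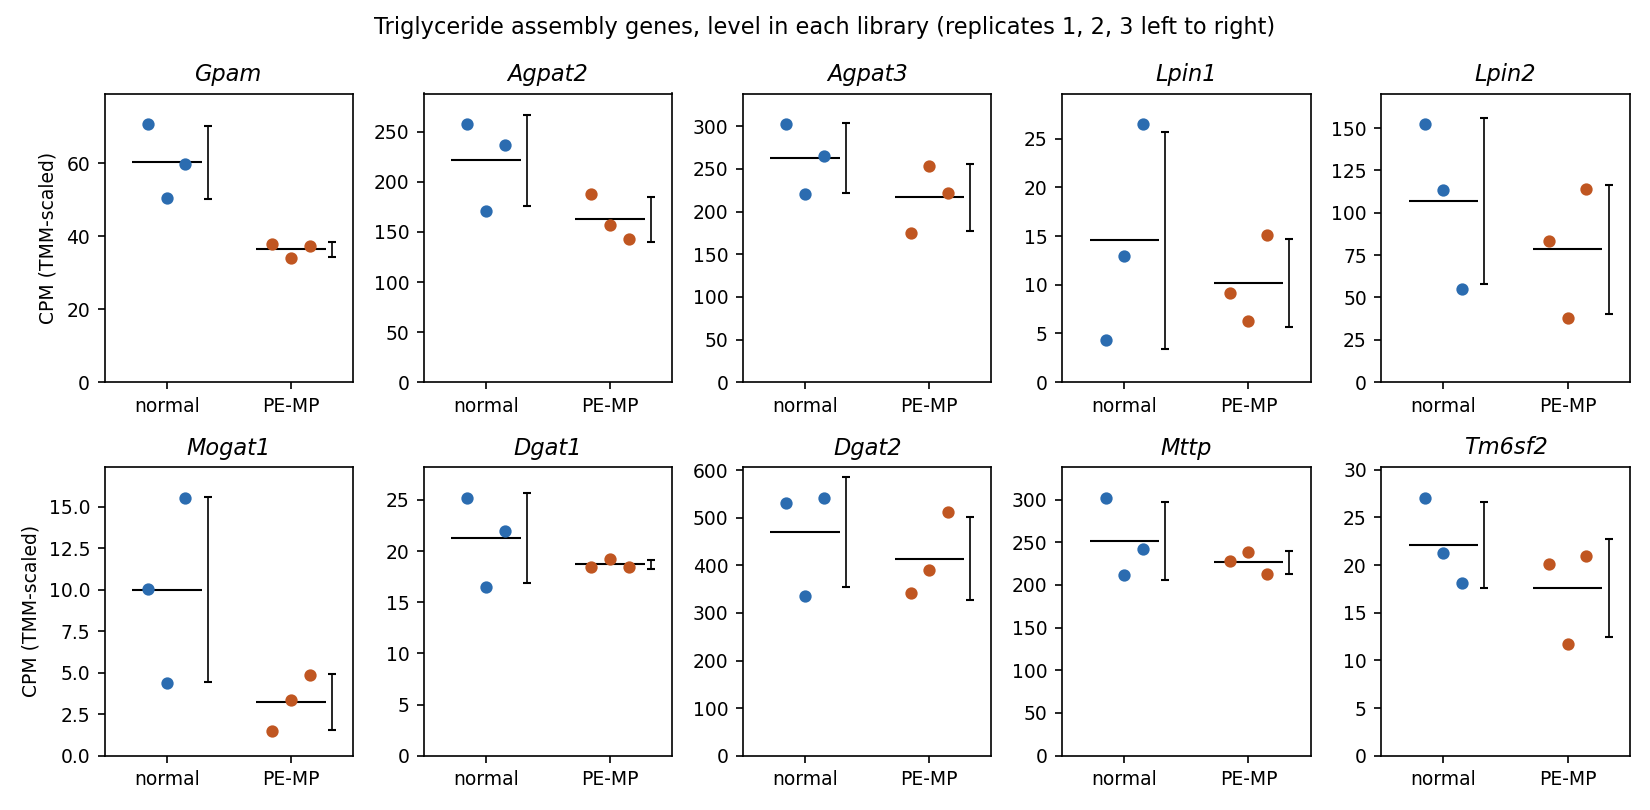
Level of each member in CPM scaled by TMM factors (vertical axes, each from 0) in 3 libraries on normal chow (blue) and 3 on PE-MP chow (orange); horizontal lines are means and bars beside them are 1 SD. Gpam is the member whose chows do not overlap, with PE-MP libraries at 34.0 to 38.0 CPM and normal chow libraries at 50.6 to 70.6 CPM, while Lpin1, Lpin2 and Mogat1 spread more than 2-fold within both chows.

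Gpam codes for the mitochondrial GPAT, which carries out the first committed step. It stood at 70.6, 50.6 and 59.6 CPM in normal chow libraries 1, 2 and 3 and at 38.0, 34.0 and 37.2 CPM in PE-MP libraries 1, 2 and 3. All 3 PE-MP libraries lay below all 3 on normal chow and were close to each other. The PE-MP mean was 36.4 ± 2.09 CPM (SD, n = 3). The log2 fold change was -0.73 ± 0.15 (SE; 95% interval -1.08 to -0.38; edgeR unadjusted p = 0.00184, adjusted p = 0.128), or 0.604 of the normal chow level. The difference exceeded the spread between libraries of either chow but did not pass the threshold over all genes. DESeq2 gave an adjusted p of 0.00441. Without normal chow library 2, the library rich in 18S counts, edgeR gave -0.84 with an adjusted p of 0.0345, where 3.27% of all tested genes were called lower. With any other single library left out, the edgeR adjusted p ran from 0.206 to 0.379. Limma-voom gave an adjusted p of 0.112, and edgeR without mitochondrial rows and Rn18s-rs5 gave 0.136. With library totals the log2 fold change was -0.43 (edgeR adjusted p = 0.159). The unscaled levels were 65.1, 44.5 and 53.6 CPM against 40.7, 37.1 and 43.5 CPM, still without overlap.

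The endoplasmic reticulum counterpart Gpat4 stood at 277, 215 and 238 CPM under normal chow and 249, 271 and 204 CPM under PE-MP chow, with an estimate of -0.011 ± 0.16 (log2 fold change ± SE; edgeR adjusted p = 0.977). The ratio of Gpam to Gpat4 within a library does not depend on the scaling between libraries. Per base of median transcript length normal chow libraries 1 to 3 gave ratios of 0.0685, 0.0631 and 0.0673, and PE-MP libraries 1 to 3 gave 0.0409, 0.0337 and 0.0490. With the longest transcripts the ratios were larger, at 0.228, 0.210 and 0.224 against 0.136, 0.112 and 0.163. The 3 PE-MP values all lay below the 3 on normal chow. Leaving out any 1 library left the log2 ratio of mean values between -0.83 and -0.56.

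The AGPAT members make phosphatidic acid. Agpat2, whose loss causes lipodystrophy, stood at 257, 171 and 237 CPM under normal chow and 187, 157 and 143 CPM under PE-MP chow. The chows overlapped, since normal chow library 2 lay below PE-MP library 1. Its log2 fold change was -0.45 ± 0.19 (SE; 95% interval -0.90 to 0.0032; edgeR adjusted p = 0.282), and -0.15 with library totals. Agpat3 stood at 302, 221 and 265 CPM under normal chow and 175, 253 and 222 CPM under PE-MP chow. The ranges overlapped and the log2 fold change was -0.28 ± 0.18 (SE; edgeR adjusted p = 0.458), turning to 0.023 with library totals. Within libraries the ratio of Agpat3 to Agpat2 per base of median transcript length was 1.63 to 1.88 under normal chow and 1.36 to 2.33 under PE-MP chow. With the longest transcripts it was 0.279 to 0.323 and 0.233 to 0.400. The balance of this pair overlapped between the chows either way.

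The lipins, which turn phosphatidic acid into diacylglycerol, varied most between libraries of 1 chow together with Mogat1. Lpin1, the lipin gene mutated in the fatty liver dystrophy mouse, also codes for a coactivator of fatty acid oxidation genes. It stood at 4.34, 12.9 and 26.5 CPM under normal chow and at 9.12, 6.26 and 15.1 CPM under PE-MP chow. Normal chow libraries 1 and 3 were thus its lowest and highest levels of all, a 6.10-fold range that enclosed the PE-MP libraries. The log2 fold change of -0.52 ± 0.66 (SE; 95% interval -2.13 to 1.09; edgeR adjusted p = 0.710) turned to 0.24 without normal chow library 3, and was -0.96 without normal chow library 1.

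Lpin2, the lipin with more counts per base in these livers, stood at 152, 114 and 55.0 CPM under normal chow and 83.6, 38.1 and 114 CPM under PE-MP chow. The chows overlapped widely, with an estimate of -0.45 ± 0.50 (log2 fold change ± SE; 95% interval -1.67 to 0.77; edgeR adjusted p = 0.671). Without normal chow library 1 it was -0.11 and without PE-MP library 2 it was -0.12. The ratio of Lpin2 to Lpin1 per base of median length was 114, 28.5 and 6.74 in the 3 normal chow libraries, against 29.7, 19.7 and 24.4 with PE-MP. With the longest transcripts it was smaller, at 34.7, 8.71 and 2.06 against 9.07, 6.02 and 7.45. The 3 PE-MP libraries held a narrow ratio, and the normal chow libraries reached both above and below it. The mean ratio under PE-MP chow was 0.496 of that under normal chow, and without normal chow library 1 its log2 value turned from -1.01 to 0.48. The estimated biological coefficients of variation of Lpin1 and Lpin2, the spread of a gene between libraries beyond counting error, lay at the 89.8 and 81.2 percentiles of tested genes.

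Clock genes also differed between libraries of the same chow, and Lpin1 is known as a gene with a daily rhythm. Dbp, a clock output factor, stood at 2.08, 2.26 and 46.2 CPM under normal chow and 2.23, 19.2 and 41.3 CPM under PE-MP chow. Arntl, the clock activator, ran the other way, at 12.3, 13.3 and 3.52 CPM and at 9.60, 5.56 and 1.66 CPM. Lpin1 was highest within each chow in library 3, where Dbp was highest and Arntl lowest. The order did not match throughout, since Lpin1 was lower in PE-MP library 2 than in PE-MP library 1 although Dbp was higher there. The labels give no time of day, and the part of clock phase in the lipin levels was not tested. Of 17 tested clock genes, 0 passed the edgeR threshold in either direction, with a median log2 fold change of 0.35; the 3 with the smallest p were Per2 (1.58 ± 0.54), Hlf (1.24 ± 0.53) and Nr1d2 (0.66 ± 0.34; log2 fold change ± SE). Per2 was at 4.06, 3.31 and 6.06 CPM under normal chow and 5.16, 12.2 and 22.8 CPM under PE-MP chow, and DESeq2 called it higher.

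**Figure D2:**
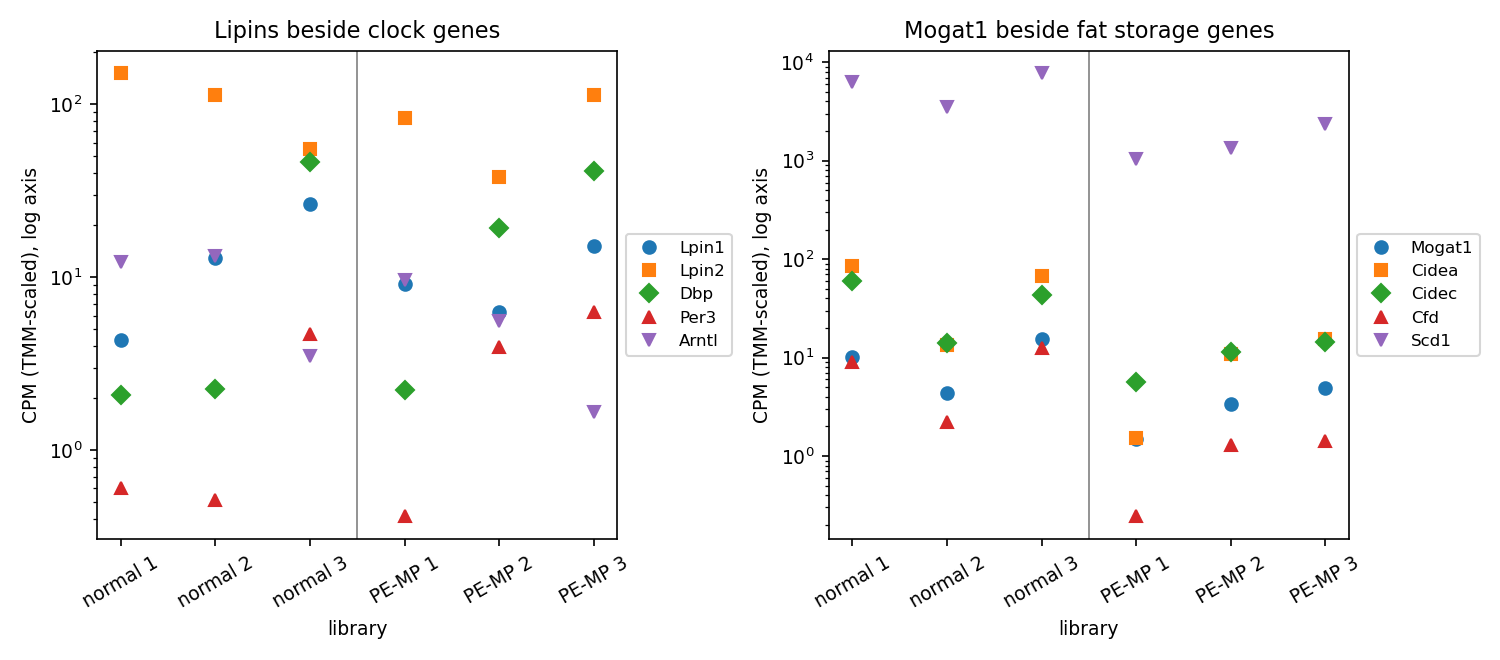
Levels in CPM scaled by TMM factors (vertical log axes) in the 6 libraries, for Lpin1 and Lpin2 beside the clock genes Dbp, Per3 and Arntl (left) and for Mogat1 beside Cidea, Cidec, Cfd and Scd1 (right; Mogat1 and Cidea coincide in PE-MP library 1, at 1.50 and 1.53 CPM). Dbp is high in library 3 of both chows, at 46.2 and 41.3 CPM, and Mogat1 is lowest in PE-MP library 1, as are Cidea, Cidec and Cfd.

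Mogat1, which codes for an MGAT enzyme that is induced in fatty liver, had the largest fold change of the members and few counts. It stood at 10.1, 4.38 and 15.5 CPM under normal chow (704, 263 and 1572 counts) and at 1.50, 3.37 and 4.88 CPM under PE-MP chow (142, 276 and 525 counts). The chows overlapped at 1 point, since normal chow library 2 lay below PE-MP library 3. The log2 fold change was -1.62 ± 0.58 (SE; 95% interval -3.03 to -0.21; edgeR unadjusted p = 0.0302, adjusted p = 0.233), or 0.325 of the normal chow level. It ran from -2.04 without PE-MP library 3 to -1.15 without normal chow library 3, with unadjusted p-values of 0.0223 and 0.0982 by edgeR. DESeq2 gave an adjusted p of 0.0431.

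Mogat1 is also expressed in adipose tissue, so adipocyte markers are given beside it. Of 12 such genes, 7 had counts in every library. The summed level of the 12 was 2749 to 3879 CPM under normal chow and 1388 to 3076 CPM under PE-MP chow, most of it from Car3, which hepatocytes also express. Of the 8 that were tested, 8 were negative, with a median log2 fold change of -1.61, 5 were lower at an unadjusted p under 0.05 and 0 passed the edgeR threshold. Over all tested genes 48.3% were negative and 8.82% were lower by that rule. Lep, which codes for leptin, had 0 counts in all 6 libraries, Adipoq (adiponectin) had 0, 0 and 2 counts under normal chow and 10, 0 and 5 under PE-MP chow, and the droplet coat gene Plin1 had 0 in each normal chow library and 7, 0 and 5 under PE-MP chow. Some other markers of the list were lower with PE-MP, as Mogat1 was. Fabp4 (-0.19 ± 0.19) and Lipe (-0.19 ± 0.21; log2 fold change ± SE) differed little, with overlapping chows. The resistin gene Retn had 18, 11 and 35 counts under normal chow and Adig, a gene of fat cell differentiation, had 19, 7 and 40, and both had 0 counts in all 3 PE-MP libraries. Cfd, which codes for adipsin, stood at 9.07, 2.21 and 12.4 CPM under normal chow and 0.243, 1.31 and 1.43 CPM under PE-MP chow, the same order of libraries as Mogat1 within each chow. Cidea, a lipid droplet gene that fatty hepatocytes express as well, stood at 84.4, 13.5 and 67.8 CPM under normal chow and 1.53, 10.8 and 15.3 CPM under PE-MP chow. Its order matched that of Mogat1 within PE-MP chow and not within normal chow. The part of adipocyte RNA in the level of Mogat1 was not tested. In bulk tissue, fewer cells of a type and less RNA per cell cannot be told apart.

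The DGAT enzymes close the pathway. Dgat2, which mainly esterifies newly made fatty acids, had the most counts of the members and stood at 531, 337 and 542 CPM under normal chow and 342, 390 and 512 CPM under PE-MP chow. The PE-MP libraries all lay within the normal chow range, with a log2 fold change of -0.18 ± 0.24 (SE; 95% interval -0.74 to 0.38; edgeR adjusted p = 0.715). Dgat1, which re-esterifies fatty acids taken up or released from stores, stood at 25.2, 16.5 and 22.0 CPM under normal chow and 18.4, 19.2 and 18.4 CPM under PE-MP chow. The PE-MP libraries sat within the normal chow range, and the log2 fold change was -0.18 ± 0.17 (SE; 95% interval -0.59 to 0.23; edgeR adjusted p = 0.603). With library totals both turned positive, to 0.13 and 0.11. Per base, Dgat2 exceeded Dgat1 in every library, by 21.9 to 26.4 times under normal chow and 19.9 to 29.8 times under PE-MP chow with median transcript lengths, and by 15.5 to 23.2 times over all 6 libraries with the longest transcripts.

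Mttp, the transfer protein that lipidates apolipoprotein B, stood at 302, 212 and 242 CPM under normal chow and 228, 239 and 212 CPM under PE-MP chow. The PE-MP libraries lay within the normal chow range. The log2 fold change was -0.15 ± 0.16 (SE; edgeR adjusted p = 0.638) and its 95% interval allows between 0.696 and 1.16 times the normal chow level. It was -0.0054 without normal chow library 1 and 0.14 with library totals. Tm6sf2, a membrane protein needed to enrich VLDL with lipid, stood at 27.0, 21.2 and 18.1 CPM under normal chow and 20.1, 11.7 and 20.9 CPM under PE-MP chow. PE-MP library 2 alone lay below the normal chow range, with an estimate of -0.33 ± 0.26 (log2 fold change ± SE; edgeR adjusted p = 0.535) that was -0.11 without that library.

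Apob, which codes for the protein that Mttp loads, was uneven within normal chow, at 1704, 5141 and 3844 CPM, and stood at 4040, 4994 and 4533 CPM under PE-MP chow. The ratio of Mttp to Apob per base of median length was 0.448, 0.104 and 0.159 in the 3 normal chow libraries, against 0.143, 0.121 and 0.119 with PE-MP. With the longest transcripts it was 0.623, 0.145 and 0.221 against 0.199, 0.168 and 0.165. Normal chow library 1 stood apart from the other 5. Without it the log2 value of the ratio of means went from -0.89 to -0.046.

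**Figure D3:**
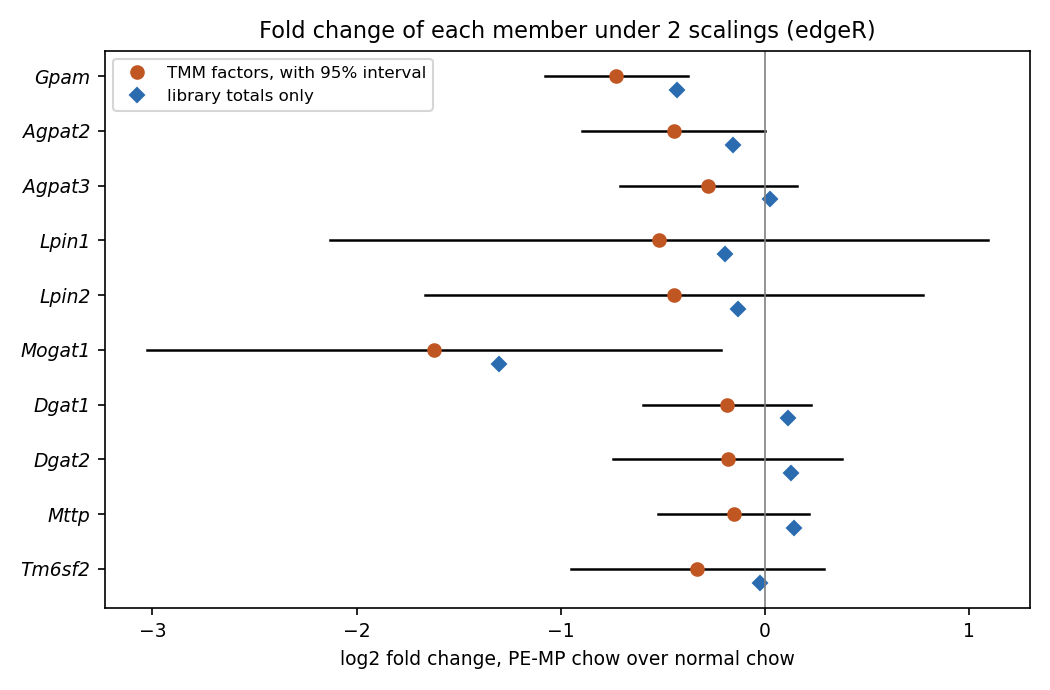
Log2 fold change of PE-MP chow over normal chow (horizontal axis) for each member, with TMM factors and 95% intervals (orange points, black lines) and with library totals only (blue diamonds). With TMM factors all 10 points are negative and the intervals of Gpam and Mogat1 exclude 0; with library totals Agpat3, Dgat1, Dgat2 and Mttp lie above 0.

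Per base of transcript, Dgat2 had the highest mean of the members and Lpin1 the lowest under both chows, whichever transcript length was used. Under PE-MP chow the means of Lpin1 and Mogat1, 2.82 ± 1.26 and 4.08 ± 2.12 CPM per kilobase with median lengths (SD, n = 3), differed by less than their spread, and in PE-MP library 1 Mogat1 lay below Lpin1. With median lengths, normal chow means in CPM per kilobase were 663 ± 163 for Dgat2, 334 ± 51.5 for Agpat3, 194 ± 39.6 for Agpat2, 96.2 ± 44.0 for Lpin2 and 82.0 ± 14.9 for Mttp (SD, n = 3). The remaining means were 40.9 ± 8.37 for Tm6sf2, 27.9 ± 5.77 for Dgat1, 18.2 ± 3.03 for Gpam, 12.5 ± 6.99 for Mogat1 and 4.05 ± 3.10 for Lpin1 (SD, n = 3). With these lengths the neighbours Lpin2 and Mttp, and Gpam and Mogat1, differed by less than their spread. With the longest transcripts Agpat3, at 44.0 ± 6.78 CPM per kilobase, ranked behind Agpat2 at 149 ± 30.5 and Mttp at 63.5 ± 11.6 (SD, n = 3). Lpin2, at 19.0 ± 8.67 CPM per kilobase (SD, n = 3), then ranked behind Mttp and Agpat3. The places of Agpat3 and Lpin2 thus depend on the transcripts assumed.

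Libraries differed across the members as well as by chow. Normal chow library 1 held the highest level for 7 members and normal chow library 3 for the other 3. The lowest level fell in normal chow library 2 for 3 members, in PE-MP library 2 for 3, in PE-MP library 1 for 2, and in normal chow library 1 and PE-MP library 3 for 1 each. As an unscaled share, the 10 members together took 0.155%, 0.102% and 0.133% of the counts under normal chow, against 0.118%, 0.126% and 0.152% with PE-MP. These shares overlapped, and Dgat2 made up the largest portion.

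**Figure D4:**
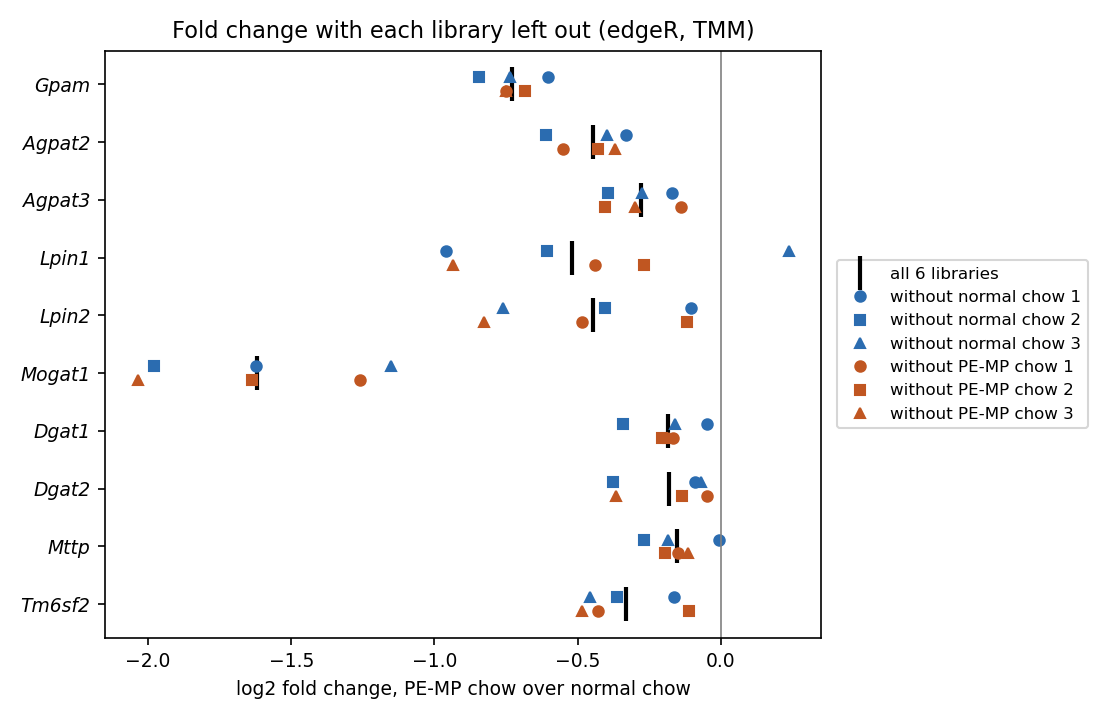
Log2 fold change of PE-MP chow over normal chow (horizontal axis, TMM factors) for each member with all 6 libraries (black bars) and with 1 library left out (blue for normal chow, orange for PE-MP chow; circle, square and triangle for libraries 1, 2 and 3). Gpam runs from -0.84 to -0.60, and Lpin1 is the member that crosses 0, reaching 0.24 without normal chow library 3.

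Of 13 other tested enzymes of triglyceride assembly, 0 passed the edgeR threshold. Of these, 10 had a negative log2 fold change (median of the 13, -0.071), against 48.3% of all tested genes. The 3 with the smallest p were Gpd1, which makes glycerol 3-phosphate from a glycolytic intermediate (-0.37 ± 0.15), Gk, which makes it from glycerol (0.41 ± 0.19), and the AGPAT gene Agpat5 (-0.27 ± 0.15; log2 fold change ± SE). Gk was at 90.9, 149 and 121 CPM under normal chow and 161, 169 and 150 CPM under PE-MP chow. It was the 1 enzyme of the 13 that was higher without overlap, by a small margin, as were 2558 of all 18043 tested genes. Mogat2, the intestinal MGAT, was left out by the filter on low counts. Of 13 genes of fatty acid supply, 0 passed in edgeR, with a median of -0.19. DESeq2 called 2 of them lower, the acyl-CoA binding protein Dbi and the fatty acid binding protein Fabp1. Dbi stood at 701, 513 and 683 CPM under normal chow and 338, 302 and 330 CPM under PE-MP chow (-0.97 ± 0.15), Fabp1 had -0.51 ± 0.11 and the transport protein Slc27a4 -0.39 ± 0.20 (log2 fold change ± SE).

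Of 23 genes listed for VLDL assembly and lipid export, some of them lipid droplet genes, 0 passed in edgeR. Of these 15 were negative, against 48.3% of all tested genes, and the median was -0.15. At an unadjusted p under 0.05, 3 were higher and 4 lower, against 9.10% and 8.82% of all tested genes. Without overlap 3 were higher and 5 lower, against 2558 and 2125 of all 18043 tested genes. The 3 with the smallest p were Fitm1, which aids the budding of lipid droplets (-1.23 ± 0.32), Apoc3, an inhibitor of triglyceride clearance (-0.63 ± 0.19), and Bscl2, the droplet protein seipin (-0.83 ± 0.27; log2 fold change ± SE). Fitm1 stood at 116, 68.3 and 166 CPM under normal chow and 43.8, 49.0 and 57.0 CPM under PE-MP chow, without overlap, and was called lower by DESeq2. Among 21 genes of transcriptional control, 0 passed in edgeR and the median was 0.0077. Mlxipl, which codes for the carbohydrate-responsive factor ChREBP, had 1.38 ± 0.18, its partner Mlx -0.74 ± 0.14 and the coactivator Ppargc1a 0.41 ± 0.26 (log2 fold change ± SE). Mlx stood at 25.3, 21.3 and 20.6 CPM under normal chow and 12.3, 13.6 and 14.4 CPM under PE-MP chow, and DESeq2 called Mlxipl higher and Mlx lower. Srebf1, the sterol regulatory factor tied to Gpam transcription, had 0.19 ± 0.25 (log2 fold change ± SE), with overlapping chows.

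Of 11 genes that respond to feeding, 0 passed in edgeR, 9 were negative and 6 were lower at an unadjusted p under 0.05, with a median of -0.89. Over all tested genes 48.3% were negative and 8.82% were lower by that rule. Scd1, the main desaturase, had -1.89 ± 0.41, the pyruvate kinase gene Pklr -0.79 ± 0.23 and malic enzyme Me1 -1.10 ± 0.33 (log2 fold change ± SE). DESeq2 called Scd1, Me1 and Thrsp lower. Of 12 genes that respond to fasting, 0 passed in edgeR and 8 were positive, with a median of 0.25. The 3 with the smallest p were Creb3l3, a hepatic factor that controls lipid genes in fasting (-3.50 ± 1.08), Tat, a tyrosine-degrading enzyme (0.53 ± 0.21), and Cyp4a14, a fatty acid hydroxylase (0.34 ± 0.21; log2 fold change ± SE). Creb3l3 was uneven within normal chow, at 299, 12.6 and 306 CPM, and ran from 13.5 to 21.4 CPM under PE-MP chow. The labels do not say whether the mice were fed or fasted, and the part of feeding state in the members' levels was not tested.

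The genes whose profile over the 6 libraries lay nearest to 3 members were sought among 12584 genes with a mean of at least 1 CPM, by the root mean square distance of centred log2 CPM. Nearest to Gpam were Tmem160 (distance 0.0624), the lysosomal lipase gene Lipa (0.0642) and Wdr89 (0.0643). Lipa stood at 356, 257 and 305 CPM under normal chow and 195, 196 and 192 CPM under PE-MP chow. Nearest to Mogat1 were Cyp2a21-ps (0.185), the galectin gene Lgals1 (0.243) and the hepcidin paralog Hamp2 (0.246), and nearest to Agpat2 were F8a (0.0382), the chromatin remodeller Smarca4 (0.0464) and Opa3 (0.0528). The larger distances for Mogat1 go with its wider spread between libraries.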

How the data were processed

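Polyadenylated liver RNA went into strand-keeping libraries, per the labels' protocols. The authors deposited raw counts per gene, and genome build GRCm39 and bcl2fastq are named per the submitters' processing notes; for the aligner, counting program, annotation and strand setting, the entry is "not given in the sources used here". The table of the whole series was used; 67 symbols stood on several rows, none of them a member.

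The chows were compared by edgeR 4.0.16, run in R 4.3.3 (quasi-likelihood F test, robust, TMM factors, default expression filter, two-sided, Benjamini-Hochberg over 18043 genes, threshold 0.05). The fold change is PE-MP chow over normal chow. CPM were computed from the deposited counts and scaled by TMM factors unless called unscaled. Intervals cover 95%. Transcript lengths came from GENCODE M21, which is annotated on another build, so no coordinates of the files are given. The edgeR step was tested on simulated counts.

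The members and gene lists were chosen with earlier results of these data known. Named genes are all members, the 3 smallest p of each pathway list, and 3 nearest profiles for each of 3 members. Gpat4, Apob, Dbp, Arntl, Per3, Cidea, Cidec, Cfd, Srebf1, Thrsp and Pemt were added for comparison. So were Car3, Lep, Adipoq, Plin1, Retn, Adig, Fabp4, Lipe, Fabp2, Apoa4, Muc2, Mylpf, Acta1, Tnni2, Cela1, Cela2a and Jchain. Some of these were added after their values were seen. As alternatives, DESeq2 1.42.0, limma-voom (limma 3.58.1), RLE or upper-quartile factors, no filter, at least 1 CPM, each library left out, a replicate block, an adjusted p of 0.1, removal of mitochondrial rows and Rn18s-rs5 or of genes over 1% of a library, a length and GC offset, and, added after seeing the data, library totals only were tried.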

Additional observations from a re-analysis of the deposited data

How the results depend on the processing

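With 3 libraries per chow, no member passed under 15 of 17 other fits or at an adjusted p of 0.1 in edgeR; the exceptions were DESeq2 (2 members lower) and the fit without normal chow library 2 (1 lower, Gpam). Gpam, Agpat2, Lpin2, Mogat1 and Tm6sf2 were negative under all 17 fits. With library totals only, the log2 fold changes reversed for Agpat3 (0.023), Dgat1 (0.11), Dgat2 (0.13) and Mttp (0.14), which follows from scaling factors that differ between the chows. Without normal chow library 3 that of Lpin1 reversed, its range with 1 library left out being -0.96 to 0.24. Over all genes, 1 was called higher and 0 lower. The numbers called higher and lower were 2 and 1 with RLE factors, 555 and 540 with DESeq2, 7 and 12 with limma-voom, 15 and 8 without a filter, 11 and 11 with the stricter filter, and 24 and 29 at an adjusted p of 0.1. They were 2 and 0 with the length and GC offset, 10 and 0 with library totals, and 0 and 0 with the replicate block. With 1 library left out they ran from 1 to 452 higher and from 0 to 623 lower, the highest without normal chow library 2. The cause was not tested.

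Pathway lists gained calls with DESeq2, which called 5.17% of all its tested genes. The gains were fatty acid supply 2, VLDL assembly and export 1, transcriptional control 2, feeding 3, fasting 1 and clock 1. These lists held 13, 23, 21, 11, 12 and 17 genes tested in edgeR, in that order. Transcriptional control gained 1 without a filter and 1 at an adjusted p of 0.1. With 1 library left out, counts ran from 0 to 1 for the other assembly enzymes, the phospholipid branch and fasting. They ran from 0 to 3 for fatty acid supply and feeding, 0 to 4 for VLDL assembly and export and 0 to 2 for transcriptional control. Members lower ran from 0 to 1. The highest counts all came without normal chow library 2, where 5.65% of all tested genes were called. Same-numbered libraries of the chows deviated together with correlations of 0.0496, 0.0850 and 0.183. Libraries of unlike number gave -0.184 to 0.105. Normal chow libraries 1 and 3 correlated best with their own number, and normal chow library 2 with PE-MP library 1. The labels do not say that the numbers pair the libraries, and the main fit took them as unpaired. With the replicate block Gpam had -0.72 (adjusted p = 0.243), Mogat1 -1.60 (0.283) and 0 members passed.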

Other observations

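Phosphatidic acid and diacylglycerol also feed phospholipid synthesis. Of 21 tested genes of that branch 0 passed the edgeR threshold, and 1 was higher and 3 were lower at an unadjusted p under 0.05, against 9.10% and 8.82% of all tested genes; the median log2 fold change was -0.047. The 3 with the smallest p were the diacylglycerol kinase Dgkq (0.52 ± 0.17), the lipid phosphate phosphatase Plpp2 (-0.46 ± 0.16) and the ethanolamine phosphotransferase Selenoi (-0.36 ± 0.13; log2 fold change ± SE). Selenoi stood at 52.6, 56.2 and 47.5 CPM under normal chow and 46.1, 39.3 and 36.3 CPM under PE-MP chow, without overlap. Without normal chow library 2, edgeR called 1 gene of the branch, Pemt, which makes phosphatidylcholine by methylation, lower.

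Of 8 tested genes that control lipins, 0 passed, with a median of 0.084. The phosphatase genes Ctdsp1 and Ctdnep1 had log2 fold changes of -0.24 ± 0.12 and -0.42 ± 0.22, and the deacetylase gene Sirt1 one of 0.47 ± 0.25 (SE). Of the other cell types checked, 10 stellate cell markers summed to 464 to 501 CPM under normal chow and 269 to 477 CPM under PE-MP chow, and 8 cholangiocyte markers to 28.5 to 42.8 and 31.4 to 40.6 CPM. Of 8 intestinal markers, Alpi, Cdx2, Lct and Sis had 0 counts in all libraries. Fabp2 stood at 52.6 to 97.0 CPM and Apoa4 at 94.1 to 225 CPM over the 6 libraries. The mucin gene Muc2 had 0, 3 and 0 counts under normal chow and 26, 11 and 12 under PE-MP chow. Muc2 was higher without overlap (edgeR unadjusted p = 0.0202, adjusted p = 0.206), as were 2558 of all 18043 tested genes. Of 8 muscle markers, Ckm, Myh1, Myh4, Pvalb and Tnnt3 had 0, while Mylpf had 32 to 59 counts in every library. Acta1 had 4 counts in PE-MP library 1 and Tnni2 had 2 in PE-MP library 2, with 0 elsewhere. Of 8 exocrine pancreas markers, Amy2a5, Clps, Cpa1, Ctrb1, Pnlip and Prss2 had 0. Cela1 stood at 9.53 to 13.4 CPM over the 6 libraries and Cela2a had 0 to 33 counts.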
